A study of Mus musculus with 4 samples.

Results

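The 8 genes Spp1, Adgre1, Lyz2, Cd68, Cd14, Csf1r, Mpeg1 and Lpl, which mark macrophages or serve their functions, were followed in leukaemia cells of the mouse with a conditional knockout of Ybx1 and in WT cells. They were taken by symbol, and all 8 were among the 28141 genes of the table and passed the filter on low values. They were selected partly on values of these same data, the very high level of Spp1 and Adgre1 and the higher level of Lyz2 in the knockout, so the values of the 8 genes are a description and carry no test. The samples were polyadenylated RNA of leukaemia cells taken from bone marrow of C57BL/6 mice. One group of 2 libraries came from Ybx1 cKO cells, in which Ybx1 is conditionally knocked out, and the other group of 2 from WT cells. The labels call both LSCs, the series title speaks of leukaemia stem cells in chronic myeloid leukaemia, and the sources used here do not give the leukaemia model, the Cre driver, the cell sorting or the ages of the mice. No label states that replicates are separate mice, so the p-values rest on a spread between libraries that could be technical.

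Macrophages descend from myeloid progenitors or from embryonic precursors, and depend on signals through the receptor that Csf1r encodes, which binds CSF1 and IL-34. Their genes are switched on by factors such as PU.1, encoded by Spi1, and by C/EBP proteins, and many of them serve uptake, digestion and the sensing of microbes. Several of the 8 genes are not limited to macrophages: Lyz2 is also active in neutrophils and their precursors, and Spp1 in osteoclasts, bone-forming cells and many tumours. Ybx1 encodes a protein that binds RNA and DNA and was named for the Y-box, an inverted CCAAT element of promoters.

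Values are log2 levels, which are the deposited log-scale values multiplied by 0.693, a factor inferred from replicate noise. Read as plain log2 instead, the log2 levels not divided by exon length and all log2 differences below would be 1.44 times as large. With the factor taken from how replicate noise falls with the level, 1.60 (cKO) and 1.62 (WT) deposited units per doubling in place of 1.44, they would be 0.897 times as large. Depth is unknown, because the table holds no counts. Ybx1 itself, the check of the labels, stood at 8.19 and 8.13 in the 2 cKO libraries, against 9.31 and 9.41 in the 2 WT libraries (log2 fold change -1.20, SE 0.08, limma adjusted p = 1.1e-11). Its transcript was thus still present in cKO, at 0.436 times the WT level. Of 15527 genes tested, 37.4% passed a limma adjusted p of 0.05, with 3035 higher and 2768 lower in cKO. With libraries scaled to equal sums instead, which shifts the median of all genes by -0.12, the split was 2132 higher and 4047 lower. Genes of very high level tended to be higher in cKO: the 64 tested genes with a mean log2 level of 14 or more had a median log2 fold change of 0.29, against 0.00 for all tested genes. In bulk RNA, fewer cells of a type and less RNA per cell cannot be told apart.

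RefSeq promoters on GRCm38.p6 were at hand for 4 of the 8 genes. They are shown, with that of the lysozyme paralogue Lyz1, because the 2 lysozyme genes share sequence near the start but not level. A further reason is that the Spp1 promoter holds the letters of a Y-box. Each line gives the 250 bases before the RefSeq start, 5′ to 3′ on the gene's strand. Capitals mark CTGATTGG (the Y-box) and GGAAGT (the core bound by ETS factors such as PU.1) in Spp1, GGAAGT on the opposite strand in Lyz2 and Lyz1, TGANTCA (the AP-1 element) and CCAAT in Cd68, and CCAAT in Mpeg1.
Spp1: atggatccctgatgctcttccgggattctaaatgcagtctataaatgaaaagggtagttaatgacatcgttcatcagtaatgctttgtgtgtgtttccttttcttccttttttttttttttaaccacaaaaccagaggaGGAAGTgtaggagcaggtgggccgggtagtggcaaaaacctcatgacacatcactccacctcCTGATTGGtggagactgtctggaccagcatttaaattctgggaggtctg
Lyz2: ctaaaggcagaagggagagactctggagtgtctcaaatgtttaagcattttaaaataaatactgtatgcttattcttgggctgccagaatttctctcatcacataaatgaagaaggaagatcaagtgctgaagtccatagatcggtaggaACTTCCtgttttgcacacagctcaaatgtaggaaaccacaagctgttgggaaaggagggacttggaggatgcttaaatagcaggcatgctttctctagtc
Lyz1: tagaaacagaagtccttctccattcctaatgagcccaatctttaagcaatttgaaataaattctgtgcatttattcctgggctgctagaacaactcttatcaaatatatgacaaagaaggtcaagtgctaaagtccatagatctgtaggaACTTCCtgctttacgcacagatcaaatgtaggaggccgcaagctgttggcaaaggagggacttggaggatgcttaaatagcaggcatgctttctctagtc
Cd68: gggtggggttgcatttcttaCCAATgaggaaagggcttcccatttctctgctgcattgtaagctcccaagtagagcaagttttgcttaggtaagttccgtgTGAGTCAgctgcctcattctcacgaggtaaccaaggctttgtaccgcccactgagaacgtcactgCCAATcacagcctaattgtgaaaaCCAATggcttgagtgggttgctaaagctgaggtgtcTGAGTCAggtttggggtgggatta
Mpeg1: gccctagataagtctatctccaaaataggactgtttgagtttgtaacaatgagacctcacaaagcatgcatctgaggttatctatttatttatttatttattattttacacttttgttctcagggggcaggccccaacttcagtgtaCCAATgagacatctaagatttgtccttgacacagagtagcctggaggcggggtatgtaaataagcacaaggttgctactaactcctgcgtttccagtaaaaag
The stretches lie at chr5:104434861-104435110 on the plus strand (Spp1), chr10:117282273-117282522 and chr10:117292869-117293118 on the minus strand (Lyz2 and Lyz1), chr11:69666171-69666420 on the minus strand (Cd68) and chr19:12460520-12460769 on the plus strand (Mpeg1). GENCODE M21 begins Lyz2 upstream of the RefSeq start, so the last bases shown for Lyz2 belong to its first exon there.

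The motifs named here were searched on both strands of these 250 bases and of the same window of all 32851 promoters in the RefSeq table. Spp1 was the 1 promoter of the 5 with CTGATTGG, 49 bases before the start, and 3.83% of all promoters hold it. That match includes the CCAAT box on the other strand, whose letters occur in 33.8% of promoters. GGAAGT, found in 19.7% of promoters, began 111 bases before the start in Spp1 and 100 bases before it in both Lyz2 and Lyz1. Cd68 held TGANTCA at 149 and 24 bases before the start, an element found in 6.75% of promoters, and CCAAT at 230, 84 and 60 bases. Lyz1, unlike Lyz2, also held CCAAT, at 216 bases, which is not capitalised. Mpeg1 held CCAAT at 103 bases and none of the other motifs. The C/EBP letters TTNNGNAA (36.8% of promoters) were in Lyz2, Lyz1 and Cd68, the MITF and TFE letters TCANGTG (12.2%) in Lyz2 and Lyz1, and TATAAA (12.4%) in Spp1, 211 bases before the start. A match is a run of letters and not a bound site, and the motifs were chosen with the sequences in view.

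The 8 genes differed widely in level. Per 1000 bases of merged exons in GENCODE M21, the mean log2 level in cKO was 18.60 for Spp1, 15.46 for Lyz2, 14.22 for Adgre1, 11.86 for Cd68, 9.93 for Cd14, 7.27 for Mpeg1, 2.64 for Csf1r and -0.37 for Lpl. In WT the per-length order was the same but for Adgre1 (14.13) and Lyz2 (13.22), which changed places; Spp1 stood at 18.22, Cd68 at 11.09, Cd14 at 8.76, Mpeg1 at 7.66, Csf1r at 2.58 and Lpl at 0.66. Every neighbour in both orders was separated by more than the replicate spread. The closest pair was Adgre1 and Lyz2 in WT, 0.90 apart between their nearest libraries, and the widest gap between replicates was 0.30, for Lpl in WT. Merged exons pool all annotated transcripts, so the length of Lpl (10478 bases) may exceed that of its main messenger and lower its per-length level.

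**Figure D1:**
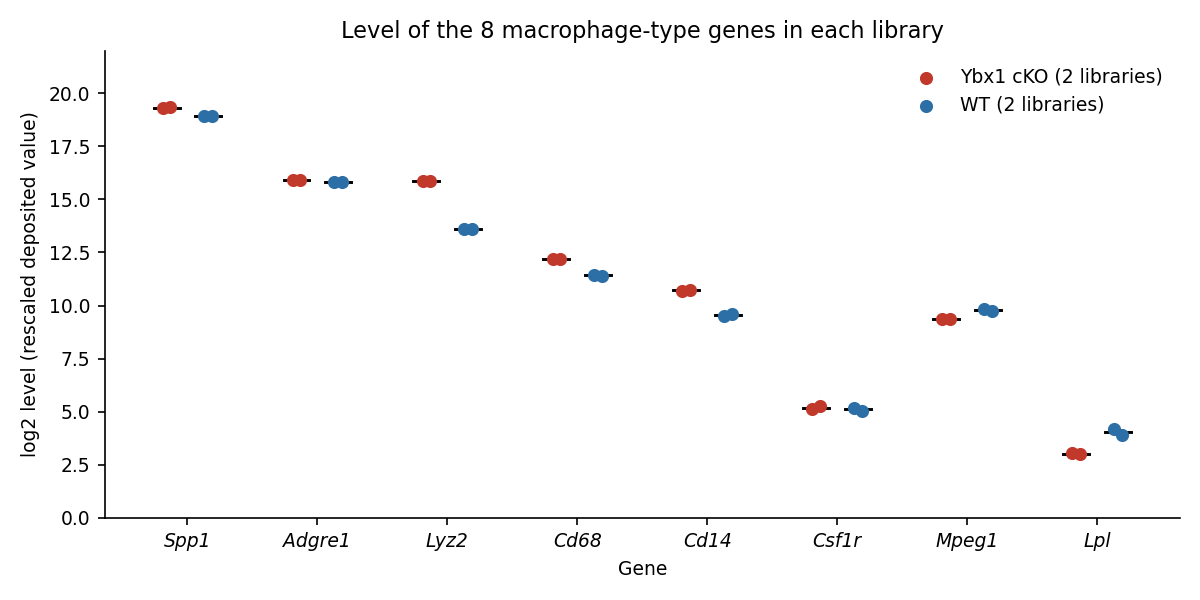
Log2 level (vertical axis) of each of the 8 genes (horizontal axis) in the 2 Ybx1 cKO libraries (red) and the 2 WT libraries (blue), with a black line at each group mean. Lyz2 shows the widest separation, 15.86 in cKO against 13.61 in WT, while Adgre1 and Csf1r lie nearly level.

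Between the genotypes, both cKO libraries lay above both WT libraries for 5 of the 8 genes and below them for 2, and the groups overlapped for Csf1r. Groups did not overlap for 65.1% of all tested genes, with cKO above for 32.7% and below for 32.4%. Lyz2, Cd14 and Lpl differed by at least 2-fold, the first 2 being higher in cKO and Lpl lower. Lpl was under 2-fold with the factor from the slope of the noise (-0.93) and without WT replicate 1 (-0.88). The differences ranged from -1.03 to 2.25 on the log2 scale, so the 8 genes did not move as a block.

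**Figure D2:**
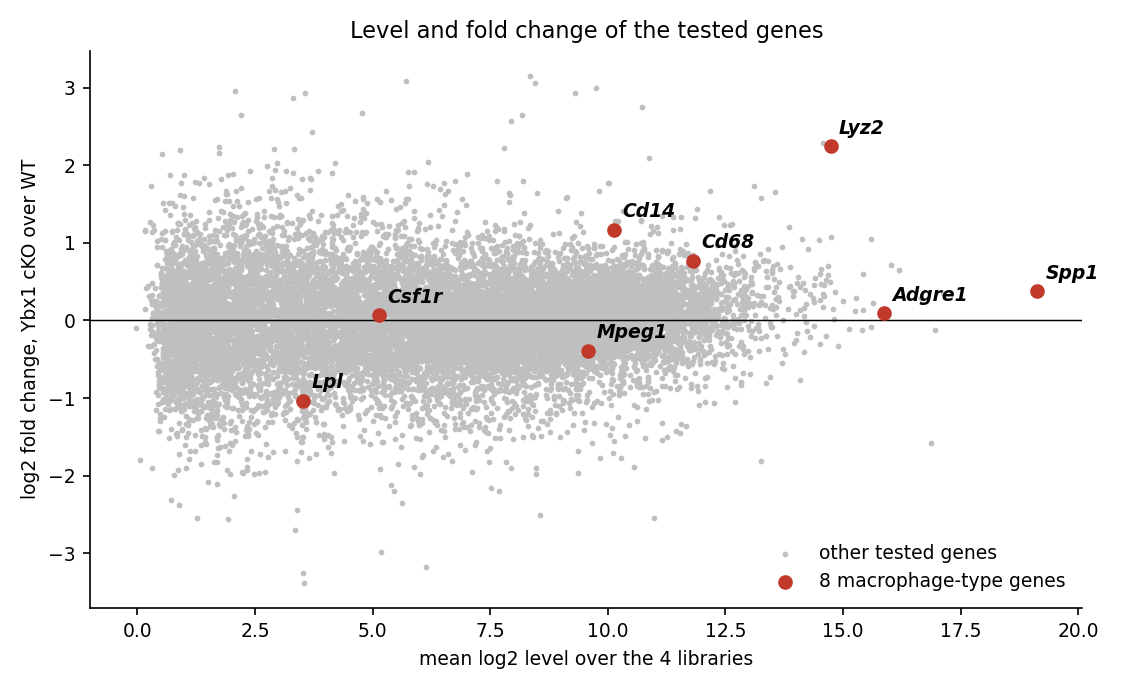
Log2 fold change of Ybx1 cKO over WT (vertical axis) against the mean log2 level over the 4 libraries (horizontal axis) for all tested genes (grey) and the 8 macrophage-type genes (red, named). Spp1 lies at the far right at 0.38 and Lpl at -1.03 at a low level. Lyz2 lies at 2.25 at a high level, close to the unnamed grey point of Tnfrsf26 (2.29).

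Spp1 encodes osteopontin, a secreted phosphoprotein that binds integrins and CD44. It was the most abundant gene of the table in all 4 libraries, with log2 levels of 19.30 and 19.33 in cKO, against 18.94 and 18.94 in WT. It made up 5.34% and 5.43% of the summed levels in the cKO libraries, against 4.51% and 4.54% in the WT libraries. Both cKO values were thus the higher, and the difference was 0.38 on the log2 scale (SE 0.01), or 1.30-fold. Of all tested genes, 20.95% had a larger difference in that direction, and under quantile normalization a gene that ranks first everywhere must show no difference. The gene spans 104435118 to 104441050 on chromosome 5 of GRCm38, in 8 exon blocks. A predicted transcript on the same strand, Gm42793, covers 309 of its exon bases (18.8%), and stood between -0.34 and 0.29 on the log2 scale.

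The rest of its family, the small integrin-binding glycoproteins of bone and teeth, was nearly silent. Dmp1 stood at -1.12 in cKO and -0.79 in WT and Dspp at -2.19 and -2.17, both too low to be tested, and Ibsp had no row in this table. Mepe was at a log2 level of 3.20 in cKO and 1.99 in WT; its rise (log2 fold change 1.21, SE 0.45, limma adjusted p = 0.037) did not pass when WT replicate 1, WT replicate 2 or cKO replicate 2 was left out, with adjusted p-values of 0.083, 0.18 and 0.20 in that order, nor with libraries scaled to equal sums (adjusted p = 0.057). Of 12 tested receptors and processing enzymes of osteopontin 3 rose and 4 fell, with a median of 0.10. Cd44, the hyaluronan and osteopontin receptor, rose by 0.27 (SE 0.04, limma adjusted p = 2.7e-06), though by 0.14 with libraries scaled to equal sums, and Itga5, the alpha chain of the fibronectin receptor, rose by 0.48 (SE 0.04, adjusted p = 1.4e-09). Itgb3, the beta chain of the vitronectin receptor, had a log2 fold change of -1.90 (SE 0.12, adjusted p = 2.3e-12). Its partner chain Itgav had values of 7.27 in cKO and 7.0 in WT and did not pass (adjusted p = 0.13). Itga4 fell by 0.43 (SE 0.17, adjusted p = 0.048), a call lost without WT replicate 1, where the log2 fold change was -0.25, without cKO replicate 2, and under 2 other scalings. Mmp9 and Mmp3, proteases reported to cleave osteopontin, went opposite ways, with log2 fold changes of 1.67 (SE 0.03) for Mmp9 and -0.49 (SE 0.08) for Mmp3.

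Adgre1 encodes F4/80, the adhesion receptor by which mouse macrophages are most often recognised. Its log2 levels were 15.90 and 15.93 in cKO, against 15.81 and 15.83 in WT, and it ranked 9th in both cKO libraries and 7th in both WT libraries. The cKO values were both higher on this scale, by 0.09 (SE 0.02), but as a share of the library sum they were both lower, 0.505% and 0.514% in cKO against 0.517% and 0.526% in WT, and the sign also turned under quantile normalization (-0.20). The direction for Adgre1 thus depended on the scaling. The gene lies on chromosome 17 from 57358691 to 57483527 (GRCm38), in 22 exon blocks, and none of its 50-base stretches is shared with a transcript of another gene. Its relatives Adgre4 and Adgre5 had no row in this table.

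Csf1r, which encodes the receptor for CSF1 and IL-34, was low where Adgre1 was high. Its log2 levels were 5.10 and 5.24 in cKO, against 5.195 and 5.02 in WT. The groups overlapped, and the difference of 0.07 (SE 0.26) was smaller than its error. Per 1000 bases of exon, its mean log2 level was 2.64 in cKO and 2.58 in WT, beside 14.22 and 14.13 for Adgre1. Csf1r lies on chromosome 18 and shares 873 of its exon bases (15.1%) with Hmgxb3 on the opposite strand. Hmgxb3 had higher levels, with means of 7.94 in cKO and 8.17 in WT, and since the sources used here do not say whether counting used strand, part of the low Csf1r value could belong to it. Among the other receptor kinases of the class, Pdgfra and Pdgfrb had mean log2 levels under 1 in both groups, and Kit and Flt3 had no row in this table.

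Both ligands of the CSF1 receptor fell in cKO. Csf1 stood at log2 levels of 11.41 and 11.38 in cKO, against 12.49 and 12.48 in WT (log2 fold change -1.09, SE 0.03, limma adjusted p = 3.2e-18). Il34 fell by 0.64 (SE 0.07, adjusted p = 1.4e-07). Of 15 tested genes of this axis 5 rose and 5 fell, with a median of 0.04. The Src-family kinase gene Lyn, the Ras exchange factor gene Sos1 and the feedback inhibitor gene Socs1 rose by 0.63 (SE 0.04), 0.77 (SE 0.17) and 0.65 (SE 0.10), and Adam17, a protease that sheds CSF1 and its receptor from the cell surface, fell by 0.31 (SE 0.05).

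Lyz2 encodes the lysozyme of mouse myeloid cells, an enzyme that cuts bacterial cell walls. It showed the widest difference of the 8 genes, with log2 levels of 15.87 and 15.85 in cKO, against 13.61 and 13.61 in WT. Replicates lay within 0.01 of each other and the groups 2.25 apart (SE 0.02), or 4.75-fold. By level Lyz2 ranked 10th of all genes in both cKO libraries and 78th in both WT libraries, and 0.0966% of the tested genes had a larger difference in that direction. Divided by exon length, its ranks were 6th and 7th in cKO and 27th in both WT libraries. Per 1000 bases of exon it lay above Adgre1 in cKO, 15.46 beside 14.22 on the log2 scale, and below it in WT, 13.22 beside 14.13. The gene spans 117277331 to 117282321 on chromosome 10 of GRCm38, on the minus strand, in 4 exon blocks.

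Lyz1, the lysozyme gene next to it known from the intestine, shares sequence with Lyz2. Of 1267 distinct 50-base stretches of the Lyz2 transcript, 195 (15.4%) also occur in Lyz1. The last 50 bases before the RefSeq start were identical between the promoters printed above, and 92 of the last 100 matched without gaps. Most of those 50 bases belong to the first exon of Lyz2 in GENCODE M21. Over all 250 bases 152 matched (60.8%). Lyz1 stood at log2 levels of 2.03 and 1.05 in cKO, against 0.22 and 2.25 in WT and the groups overlapped. The sources used here do not say how the authors' counting treated reads that fit both genes. The other lysozyme-type genes with a row, Lyg1 and Lalba, had mean log2 levels of -2.19 and -1.43 in cKO and of -2.18 and -1.48 in WT.

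The gene most like Lyz2 over the 4 libraries, by the distance between log2 values after each gene's own mean was taken off, was Tnfrsf26. That gene, a member of the TNF receptor superfamily, stood at 15.71 and 15.70 in cKO, against 13.43 and 13.41 in WT (distance 0.04). The chemokine gene Ppbp (distance 0.16) and Trem2, a lipid-sensing receptor gene of macrophages (distance 0.29), came next among 8492 genes searched. For Cd14 the nearest were Cd52, Impact and Tlr13 (distances 0.06 to 0.07) and for Cd68 they were Gab3, Zfp710 and Tcta (0.03 each). Spp1 had Mboat7, Slc35a2 and Atp6v1g1 nearest (0.01 each), Adgre1 had Tubb6, Cuedc1 and Map2k1 (0.01 each), Csf1r had Fem1a, Tma7-ps and S1pr2 (up to 0.03), Mpeg1 had Thap7, Ccng1 and Svil (up to 0.03), and Lpl had Neil3, Dck and Irf2bp1 (0.11 to 0.12). With 4 libraries in 2 groups, such likeness mostly restates an equal difference between the groups.

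Markers of neutrophils, which also use Lyz2, were unequal in their differences. Of 20 neutrophil markers 8 had a row, of which 6 rose and 1 fell, beside 19.5% and 17.8% of all tested genes. Their summed level was 1250 and 1258 per 1000000 in cKO, against 465 and 500.5 in WT, and Mmp8 and Mmp9 made up most of it, with 358 and 683 in cKO replicate 1. Mmp8, neutrophil collagenase, and Fpr1, a receptor for bacterial peptides, rose by 2.75 (SE 0.05) and 1.79 (SE 0.10), and Padi4, which encodes a histone-modifying enzyme of neutrophils, fell by 0.17 (SE 0.06), a call lost without WT replicate 2, without cKO replicate 1 and under a median shift. Cxcr2, a chemokine receptor gene, rose by 0.34 (SE 0.12), Lcn2, which encodes an iron-withholding granule protein, by 0.24 (SE 0.07), and the receptor gene Fpr2 by 1.67 (SE 0.46) at low levels. Prtn3, a granule protease gene, had mean levels of 5.61 in cKO and 6.06 in WT and did not pass. The defining genes S100a8, S100a9, Ly6g and Csf3r had no row in this table. The part of such cells in the Lyz2 difference was not tested.

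Cd68 encodes macrosialin, a heavily glycosylated protein of late endosomes and lysosomes. Its log2 levels were 12.19 and 12.19 in cKO, against 11.43 and 11.41 in WT. All cKO values were above all WT values, by 0.77 (SE 0.03), or 1.71-fold, and 6.36% of tested genes had a larger difference in that direction. The gene spans 69664213 to 69666153 on chromosome 11 of GRCm38, with 6 exon blocks and no overlapping gene. Its relatives Lamp1 and Lamp2, the major lysosomal membrane glycoproteins, rose by 0.48 (SE 0.04, limma adjusted p = 1.1e-09) and 0.15 (SE 0.03, adjusted p = 1.0e-04); Lamp2 turned to -0.04 under quantile normalization and lost its call with libraries scaled to equal sums. Lamp3 stood at 0.35 in cKO and 1.43 in WT and did not pass, and Lamp5 was too low to be tested.

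Cd14 encodes the co-receptor that hands bacterial endotoxin to TLR4 and its partner MD-2. Its log2 levels were 10.70 and 10.74 in cKO, against 9.51 and 9.60 in WT. Both cKO values were higher, by 1.17 (SE 0.05), or 2.25-fold, and 1.85% of tested genes had a larger difference in that direction. Cd14 lies on chromosome 18, in 1 merged exon block with no overlapping gene.

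Several other genes of endotoxin sensing also rose. Of 14 tested genes 9 rose and 1 fell, with a median of 0.49, against 19.5% higher, 17.8% lower and a median of 0.00 over all tested genes; without cKO replicate 1, 6 of the 14 passed. Tlr4 stood at 8.59 and 8.53 in cKO, against 7.61 and 7.51 in WT (log2 fold change 1.0, SE 0.10, limma adjusted p = 1.4e-08). Irak4, the first kinase of the pathway, rose by 0.91 (SE 0.05, adjusted p = 8.7e-13) and Tlr6 by 0.93 (SE 0.13, adjusted p = 3.2e-06). Ly96 and Ticam2 were picked out after their values were seen. Ly96, which encodes MD-2, rose by 0.71 (SE 0.12, adjusted p = 4.5e-05), and the adaptor gene Ticam2 fell by 1.37 (SE 0.47, adjusted p = 0.024) from low levels. Tlr2 did not pass, with mean levels of 8.41 in cKO and 8.49 in WT, and Lbp had no row in this table.

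**Figure D3:**
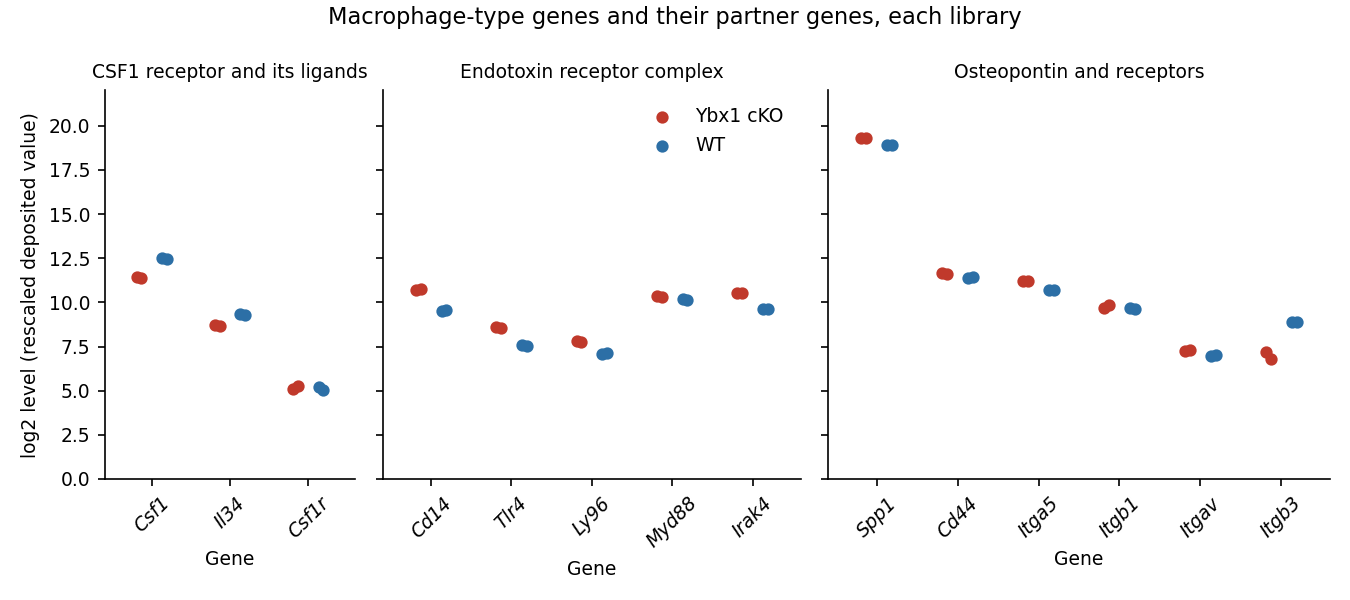
Log2 level (vertical axis) of 3 of the 8 genes and of their partner genes (horizontal axis) in the 2 Ybx1 cKO libraries (red) and the 2 WT libraries (blue). Csf1 and Il34 are lower in cKO while Csf1r is level, Cd14, Tlr4, Ly96 and Irak4 are higher in cKO, and Itgb3 is the osteopontin receptor gene with the widest difference (-1.90).

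Mpeg1 encodes perforin-2, a pore-forming protein that macrophages use against engulfed bacteria. Unlike Cd68 and Lyz2 it was lower in cKO, with log2 levels of 9.39 and 9.39, against 9.82 and 9.73 in WT. The groups did not overlap, and the difference was -0.39 (SE 0.06), which 20.9% of tested genes exceeded in that direction. The gene spans 12460779 to 12465283 on chromosome 19 of GRCm38, in 2 exon blocks and with no overlapping gene. Of the perforin and complement genes listed beside it, the pore-forming C6, C8b and C9 were below the level needed for the test. Prf1, C7 and C8a had no row in this table. The 1 tested gene of that list, C8g, stood at 5.64 in cKO and 5.62 in WT and did not pass.

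Lpl encodes lipoprotein lipase, which frees fatty acids from circulating lipoproteins. Its log2 levels were 3.04 and 2.98 in cKO, against 4.199 and 3.90 in WT. Both cKO values were lower and the difference was -1.03 (SE 0.38), or 2.05-fold, the widest error among the 8 genes. Lpl amounted to 0.682 and 0.652 per 1000000 of the library sum in cKO, against 1.65 and 1.34 in WT. Its log2 difference was -0.88 without WT replicate 1 and -1.18 without WT replicate 2. The gene spans 68880491 to 68907448 on chromosome 8 of GRCm38 and has 13 exon blocks.

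Partners of the lipase were called in both directions. Of 11 tested genes for its maturation, its inhibitors and lipid uptake 2 rose and 3 fell, with a median of -0.21, and the calls numbered 3 without WT replicate 1 and also without cKO replicate 2. Angptl4, an inhibitor of the enzyme, fell by 0.61 (SE 0.14, limma adjusted p = 9.0e-04). Furin, whose protease cleaves the enzyme and its inhibitors, fell by 0.21 (SE 0.02), or by 0.43 under quantile normalization, and Sel1l, part of the machinery that matures the enzyme, rose by 0.28 (SE 0.05), or by 0.15 with libraries scaled to equal sums. Lmf1, its folding factor, rose by 0.33 (SE 0.12, adjusted p = 0.029), a call lost without WT replicate 1 and without cKO replicate 2, where it was 0.16, and with libraries scaled to equal sums. Cd36 fell by 0.43 (SE 0.16, adjusted p = 0.038), a call lost when any 1 of the 4 libraries was left out and under 2 scalings. In the lipase family Lipa, the lysosomal acid lipase gene, had mean levels of 9.88 in cKO and 9.95 in WT, Lipe 7.99 and 7.82, Pla1a 3.92 and 3.10, and Lipc 3.01 and 3.98, of which none passed.

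Genes typical of lipid-laden macrophages, a state in which Spp1, Lpl and Cd68 are often high together, rose more often than they fell. Of 18 tested 9 rose and 1 fell, with a median of 0.19, against 19.5% higher, 17.8% lower and a median of 0.00 over all tested genes. Several of those that rose had mean log2 levels of 12 or more. All tested genes from 12 to 14 had a median of 0.18, and those of 14 or more had 0.29. The list was not compared with genes of like level. Trem2 stood at 7.22 and 7.16 in cKO, against 5.29 and 5.0 in WT (log2 fold change 2.05, SE 0.20, limma adjusted p = 5.6e-09). Ctsd, a lysosomal protease gene, rose by 0.94 (SE 0.02) and Abcg1, a cholesterol exporter gene, by 0.91 (SE 0.04). Fabp5, a fatty acid carrier gene, fell by 0.50 (SE 0.16, adjusted p = 0.018), a call lost without WT replicate 2 and without cKO replicate 1. Gpnmb, with means of 6.90 in cKO and 6.96 in WT, did not pass, and Apoe had no row in this table.

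Other macrophage markers were spread in both directions. Of 25 listed 16 had a row and 12 were tested, of which 3 rose and 2 fell (median 0.20), and 3 passed without WT replicate 1. Their summed level was 312 and 302 per 1000000 in cKO, against 233 and 231 in WT. Tyrobp alone made up 208 and 201 of it in cKO and 121 and 126 in WT, and the rest of the sum was not higher in cKO. Msr1, a scavenger receptor gene, rose by 1.75 (SE 0.19, limma adjusted p = 6.0e-08) and Tyrobp, the adaptor of Trem2, by 0.85 (SE 0.04, adjusted p = 7.1e-14). Axl, a receptor for dying cells, fell by 0.25 (SE 0.07, adjusted p = 9.6e-03), a call lost without WT replicate 1 and without cKO replicate 1. The macrophage-defining gene Mertk was at 2.28 in cKO and 1.62 in WT and Fcgr1 at 6.62 and 6.27, neither of which passed, and C1qa, C1qb and C1qc had no row in this table. Of the macrophage-defining genes, Adgre1 and Cd68 were thus high, Csf1r, Mertk and Fcgr1 low, and the C1q genes not measured here.

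Monocyte markers were likewise split. Of 13 tested 5 rose and 4 fell, with a median of 0.20 and a summed level of 3444 and 3374 per 1000000 in cKO, against 2703 and 2691 in WT. Ifitm6, an interferon-induced membrane gene of monocytes, and Itgam, which encodes CD11b, rose by 1.80 (SE 0.16) and 1.63 (SE 0.18), and Emilin2, an extracellular matrix gene, by 0.73 (SE 0.02), or by 0.48 under quantile normalization. Plac8 fell by 0.58 (SE 0.05). Of the monocyte-defining genes, Ccr2 rose by 0.63 (SE 0.06, limma adjusted p = 1.9e-08), while Ly6c2, F13a1 and Ly86 had no row in this table.

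Among 17 tested regulators of macrophage genes 5 rose and 3 fell, with a median of 0.07. Spi1, which encodes PU.1, stood at a mean log2 level of 10.39 in cKO and 9.86 in WT and rose by 0.53 (SE 0.05, limma adjusted p = 9.6e-09). Pparg, a lipid-sensing nuclear receptor gene, rose by 1.17 (SE 0.20, adjusted p = 3.9e-05) and Bhlhe40, a helix-loop-helix factor gene, by 0.33 (SE 0.03), or by 0.20 with libraries scaled to equal sums. Irf5 fell by 0.65 (SE 0.14, adjusted p = 3.6e-04), though its log2 fold change was -0.40 without cKO replicate 1, and Egr2, an immediate early factor gene, by 0.33 (SE 0.08). Ets2 fell by 0.32 (SE 0.09), a call lost without cKO replicate 1, where the log2 fold change was -0.18. Mitf and Tfe3 did not pass, and Cebpa, Irf8 and Klf4 had no row in this table.

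Genes of macrophage activation were tested in 2 lists. Of 12 tested genes of classical activation 0 rose and 6 fell, with a median of -0.23, beside 19.5% higher and 17.8% lower of all tested genes. At an unadjusted p under 0.05 the rises likewise numbered 0. The 6 calls became 3 without the filter on low values and 2 with a prior variance that did not follow the level. Ccl5 had a log2 fold change of -3.18 (SE 0.23), Il6 of -1.39 (SE 0.16) and Acod1, which makes itaconate, of -0.72 (SE 0.21); Acod1 lost its call without WT replicate 2 (adjusted p = 0.18). Of 12 tested genes of alternative activation 3 rose and 3 fell, with a median of -0.29. Arg1, the arginase of alternatively activated macrophages, stood at 9.5 in cKO and 6.85 in WT and rose by 2.65 (SE 0.11, limma adjusted p = 1.3e-15), Il4ra by 0.54 (SE 0.04) and Socs3 by 0.31 (SE 0.07), the last by 0.19 with libraries scaled to equal sums, while Pdcd1lg2 fell by 0.39 (SE 0.10). Of 9 tested osteoclast genes 2 rose and 1 fell (median 0.05), 1 of them with libraries scaled to equal sums. Nfatc1 fell by 0.25 (SE 0.08), a call lost without cKO replicate 2, where the log2 fold change was -0.13, and Ostm1 rose by 0.22 (SE 0.04) and Clcn7 by 0.16 (SE 0.04). Both calls were lost with libraries scaled to equal sums, and that of Clcn7 also under quantile normalization and without WT replicate 2. Ctsk, the collagen-cutting protease of osteoclasts, was at 0.99 in cKO and 1.12 in WT.

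**Figure D4:**
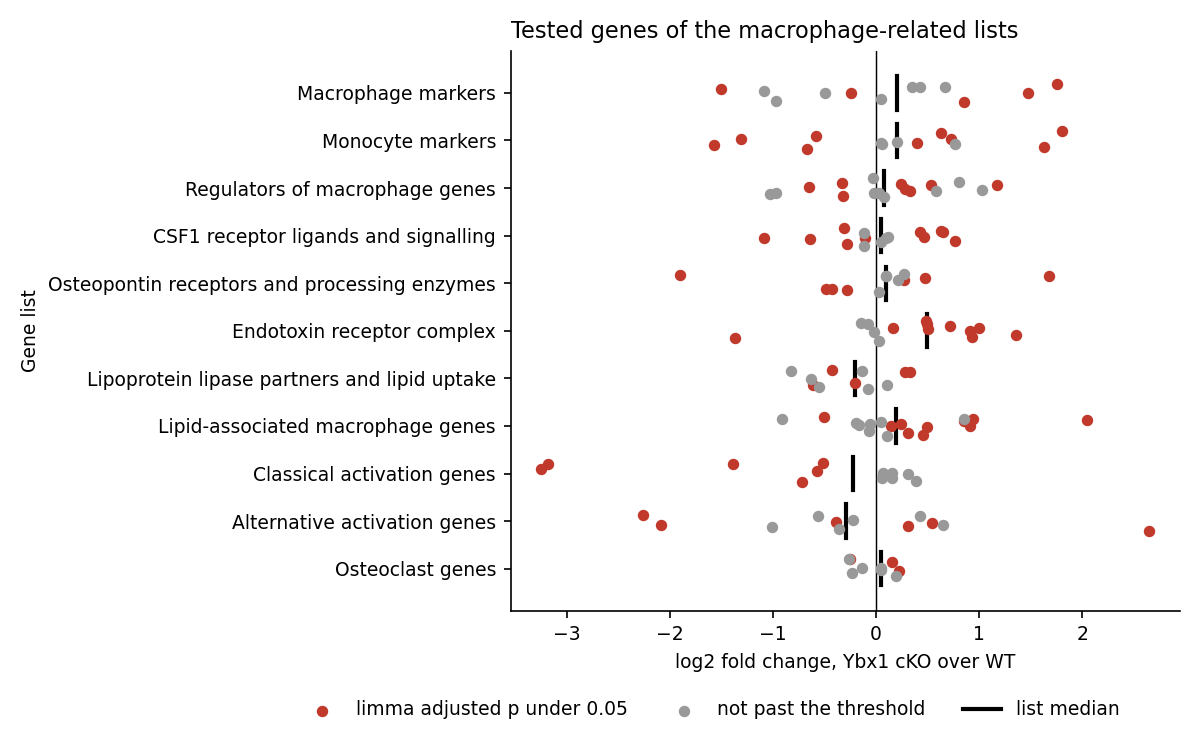
Log2 fold change of Ybx1 cKO over WT (horizontal axis) of each tested gene in the 11 macrophage-related lists with at least 9 tested genes (vertical axis); red points passed a limma adjusted p of 0.05, grey points did not, and black bars are list medians. The endotoxin receptor list has the highest median (0.49) and the alternative activation list the lowest (-0.29), while most lists hold points on both sides of 0.

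Other marrow cells that could carry these genes were measured beside them. Of the 16 T and NK cell markers 2 had a row, Gzmb and Lat, and both fell, with log2 fold changes of -1.44 (SE 0.08) and -0.55 (SE 0.08); their summed level was 59.7 and 63.7 per 1000000 in cKO, against 135.9 and 137.1 in WT. Of 12 B cell markers 2 had a row, and Cd79b rose by 0.26 (SE 0.10), a call lost without WT replicate 1, without WT replicate 2, without cKO replicate 1 and with libraries scaled to equal sums, with summed levels from 24.8 to 27.4 in cKO and from 23.0 to 24.3 in WT. Among 7 tested dendritic cell markers 1 rose, Cd74 by 0.85 (SE 0.05), and 3 fell, with a median of -0.42. Those that fell included Ccr7 at -0.99 (SE 0.14) and Bst2 at -0.65 (SE 0.07). Of 9 tested megakaryocyte markers 2 rose, Ppbp by 2.1 (SE 0.04) and Pf4 by 0.68 (SE 0.05). In the same list 1 fell, Itga2b at -0.21 (SE 0.04), and the median was -0.06. Among 9 tested endothelial and stromal markers 0 rose and 2 fell, with Pecam1 at -0.85 (SE 0.03), and at an unadjusted p under 0.05 the rises numbered 0. Pecam1 made up 229 of the summed 232 per 1000000 in cKO replicate 1 and 448 of 451 in WT replicate 1. Cdh5 was too low to be tested, and Col1a1, at 2.72 in cKO and 2.68 in WT, did not pass. Of 5 tested erythroid markers 0 rose and 3 fell, with 0 rises at an unadjusted p under 0.05, and of 4 tested mast cell, basophil and eosinophil markers 1 rose and 1 fell. The adipocyte and bone genes Plin1, Cfd and Lep were below a log2 level of 2 in both groups, and of the 3 tested on that list Pparg and Runx2 rose. The call of Runx2 (log2 fold change 0.37, SE 0.14, limma adjusted p = 0.046) was lost without WT replicate 1, without WT replicate 2 and without cKO replicate 1. How much any of these cells adds to the 8 genes was not tested.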

How the data were processed

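PolyA RNA of 2 Ybx1 cKO and 2 WT libraries was measured. The deposited table gives 1 value per gene and library, a log-scale score of unstated transformation from -3.19 to 27.9. Per the submitters' processing notes, the authors used CASAVA, HISAT2 2.1.0, featureCounts, DESeq2 and the build GRCm38, with no role or order given. Each score was multiplied by 0.693. With that factor the replicate spread of the deposited values was 1.31 times (cKO) and 1.10 times (WT) the counting error, against 5.90 and 4.83 times when read as plain log2. That counting error takes the back-transformed levels as read counts, which could not be checked. Levels per 1000000 are relative to the sum of 2 to the power of the log2 levels, which ran from 12104617 to 12134026 in cKO and from 11074317 to 11157952 in WT. Counts were not at hand, so precision could not be derived from depth.

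A gene was tested where 2 or more libraries had a score of 1 or higher. The test was that of limma 3.58.1 (R 4.3.3) over all 4 libraries, with a variance trend on the level and genotype as the 1 term. It was two-sided, with a Benjamini-Hochberg adjusted p under 0.05 as the call. On simulated data, with noise taken from the replicates of a single group, 9.63% of the calls were false, more than the threshold allows. Changes of 1.25-fold, 1.5-fold, 2-fold and 4-fold were called in 40.8%, 51%, 67.3% and 91.7% of cases. A gene that did not pass may therefore still differ. Standard errors are limma's moderated ones. Exon lengths and positions came from GENCODE M21, and 27216 of the 28141 genes had a length. The 8 genes and all gene lists were chosen with earlier results of these data known, and the 8 genes are left out of the lists. Named from each macrophage-related list were up to 3 called genes with the largest rise and up to 3 with the largest fall at a mean of at least 5 per 1000000, from each family every gene with a row, from lists of other cell types up to 2 called genes in each direction, and for each of the 8 genes the 3 most alike patterns. Genes given outside this rule (Mertk, Fcgr1, Itgav, Ccr2, Cxcr2, Lcn2, Fpr2, Prtn3, Tlr2, Ly96, Ticam2, Gpnmb, Mitf, Tfe3, Ctsk, Cdh5, Col1a1, Plin1, Cfd and Lep, with Myd88 and Itgb1 in a plot) were chosen after their values were seen. Alternatives were other filters, thresholds, priors and scalings, a replicate block, plain log2 values, and leaving out each library.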

Additional observations from a re-analysis of the deposited data

How the results depend on the processing

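Of the 8 genes, 6 were higher in cKO as deposited, and 4 were under quantile normalization and with libraries scaled to equal sums, a setting chosen after seeing the data, as was the factor from the slope of the noise, which left all counts of calls as they were. Adgre1 turned to -0.20 and -0.034 under these settings, Csf1r, whose groups overlap, to -0.06 with equal sums, and Lamp2 to -0.044 under quantile normalization. Spp1 was at 0.00 under quantile normalization, which fixes the top rank, and at 0.25 with equal sums. Lyz2 ranged from 1.93 to 3.24, Cd68 from 0.65 to 1.11, Cd14 from 1.04 to 1.69, Mpeg1 from -0.56 to -0.33 and Lpl from -1.49 to -0.88 over all alternatives, plain log2 included. The 5803 calls over all genes (3035 higher, 2768 lower) became 2267 (1177 higher, 1090 lower) with a prior variance that did not follow the level, and the 106 calls in the lists became 55 with that prior and 67 without a filter on low values; the cause was not tested. Leaving out 1 library gave 4672 to 5810 calls, of them 2493 to 2984 higher and 2136 to 2826 lower, 87 to 99 calls in the lists, and 5 to 6 of the 8 genes higher. Of 68 called genes that the naming rule picks, not all of them described here, 14 lost it in at least 1 such fit, 11 under a scaling, 29 with that prior and 18 without the filter. With the replicate number as a block the calls numbered 6026 (3138 higher, 2888 lower) and 106 in the lists. Same-numbered libraries did not deviate together (r = 0.01 over 9896 genes). With 2 libraries per group this cannot show whether same-numbered libraries shared a batch or preparation, and no label states a pairing.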
